A study of Caenorhabditis elegans with 2 samples.

Results

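The tRNA pseudogenes of Caenorhabditis elegans are the nuclear genes that the RefSeq annotation of WBcel235 marks as pseudogenic tRNA. There were 209 of them among 46890 nuclear genes, and the 612 intact nuclear tRNA genes of the same annotation served as the comparison. The assay was ChIP-seq, which sequences the DNA that is bound by a protein. The protein was RPC-1, a catalytic subunit of RNA polymerase III (Pol III), in 2 biological replicates of 1 group. Both were whole young adults of strain YL517, of unknown age and with males and females pooled, from a transgenic line with GFP and FLAG fused to the C-terminal end of RPC-1. The target is spelled PRC-1 in 1 free-text label and rpc-1 in those of the antibody and the strain. No second genotype, treatment or stage was compared, and whole worms mix all tissues.

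Pol III transcribes tRNA genes from a promoter inside the gene. Its parts are the A box and the B box, which the factor TFIIIC binds, TFIIIB is then placed just upstream and recruits the polymerase, and transcription ends at a run of T on the coding strand. A tRNA pseudogene is a sequence related to a tRNA gene that is judged unable to fold into a working tRNA. Such a sequence can still hold promoter boxes, because the boxes and the tRNA fold are separate demands on the same bases.

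Sequences of pseudogenes that the results below turn on are shown first, from the RefSeq genome of WBcel235, on the coding strand from 5′ to 3′, with a match to the A box or the B box in capitals. The B box was searched as GTTCAANNC or GTTCGANNC on the coding strand. The set holds a pseudogene with both boxes and the highest signal, 3 pseudogenes that lie against a snoRNA gene, a pseudogene with its most alike intact gene, a pair from the largest sequence family, and 2 pseudogenes with both boxes or a B box but no peak.
Y69A2AR.t1: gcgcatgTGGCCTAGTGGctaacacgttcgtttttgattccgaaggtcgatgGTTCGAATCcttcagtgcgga
F19H8.t1: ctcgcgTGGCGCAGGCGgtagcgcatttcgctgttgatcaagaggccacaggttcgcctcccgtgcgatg
D1046.t1: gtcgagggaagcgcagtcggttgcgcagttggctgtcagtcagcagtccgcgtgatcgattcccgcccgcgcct
Y59E1B.t1: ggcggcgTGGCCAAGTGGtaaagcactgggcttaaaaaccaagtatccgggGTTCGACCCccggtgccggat
C52E12.t1: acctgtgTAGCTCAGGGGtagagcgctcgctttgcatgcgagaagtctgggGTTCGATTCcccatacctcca
B0491.t2 (intact): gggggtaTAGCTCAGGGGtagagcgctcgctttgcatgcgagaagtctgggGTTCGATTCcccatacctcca
F16F9.t1: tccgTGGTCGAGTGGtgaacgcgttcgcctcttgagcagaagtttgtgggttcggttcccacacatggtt
T01G1.t1: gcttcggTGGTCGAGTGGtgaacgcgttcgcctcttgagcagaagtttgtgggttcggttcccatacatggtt
K02E7.t1: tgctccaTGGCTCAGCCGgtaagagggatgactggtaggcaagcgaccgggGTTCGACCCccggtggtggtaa
Y51B9A.t1: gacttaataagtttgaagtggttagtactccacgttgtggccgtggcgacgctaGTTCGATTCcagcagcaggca

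RPC-1 peaks reached more than 50% of the tRNA pseudogenes and peak summits fewer than 50%, at a median signal far below that of intact tRNA genes. A gene counted as occupied where a peak of the authors' optimal list, the peaks that passed their test of irreproducible discovery rate (IDR), reached its body or the 100 bp on either side. By that rule 119 of the 209 pseudogenes were occupied (56.9%, Wilson 95% interval 50.2 to 63.5%), against 595 of 612 intact tRNA genes (97.2%) and 5.64% of all nuclear genes. A peak summit lay within 100 bp of 88 pseudogenes (42.1%), of 558 intact genes (91.2%) and of 4.27% of all genes. The signal value is a score given to each peak by the authors' caller, with no fixed range. Genes were compared by it only within 1 list, and the replicate lists were set side by side only to compare their order and scale. The median summit signal was 257 at the pseudogenes, with quartiles of 135 and 547, and 3073 at the intact genes, with quartiles of 2041 and 4085. The 2 distributions overlapped: 10 pseudogenes reached the lower quartile of the intact genes, 7 reached their median, and 46 intact genes had a summit signal under 1000. Peaks at or above the median signal of the optimal list reached 46 pseudogenes (22.0%), against 576 intact genes (94.1%) and 4.17% of all genes. The intervals cover counting error over genes only, no read depth was at hand, and genes that share a sequence or a cluster are not independent. With 1 group, no p-value was computed.

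The gap to the intact genes was present in each replicate. In the list of replicate 1, the median summit signal was 81.4 over 129 pseudogenes and 1852 over 566 intact genes. In the list of replicate 2, it was 63.4 over 130 pseudogenes and 1193 over 566 intact genes. These full lists also hold weak peaks, so the genes with an optimal summit were compared again: the intact median was 11.5 times the pseudogene median in replicate 1 and 12.0 times in replicate 2, against 11.9 times in the optimal list. A replicate 1 peak reached 172 pseudogenes (82.3%), against 35.3% of all genes, and a replicate 2 peak reached 164 (78.5%), against 37.3%. Peaks of both lists reached 154 (73.7%), against 604 intact genes (98.7%) and 23.6% of all genes. Of the 119 occupied pseudogenes, 112 had a peak in both replicate lists. The optimal list was made in part from these lists, so that count is no separate support.

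**Figure D1:**
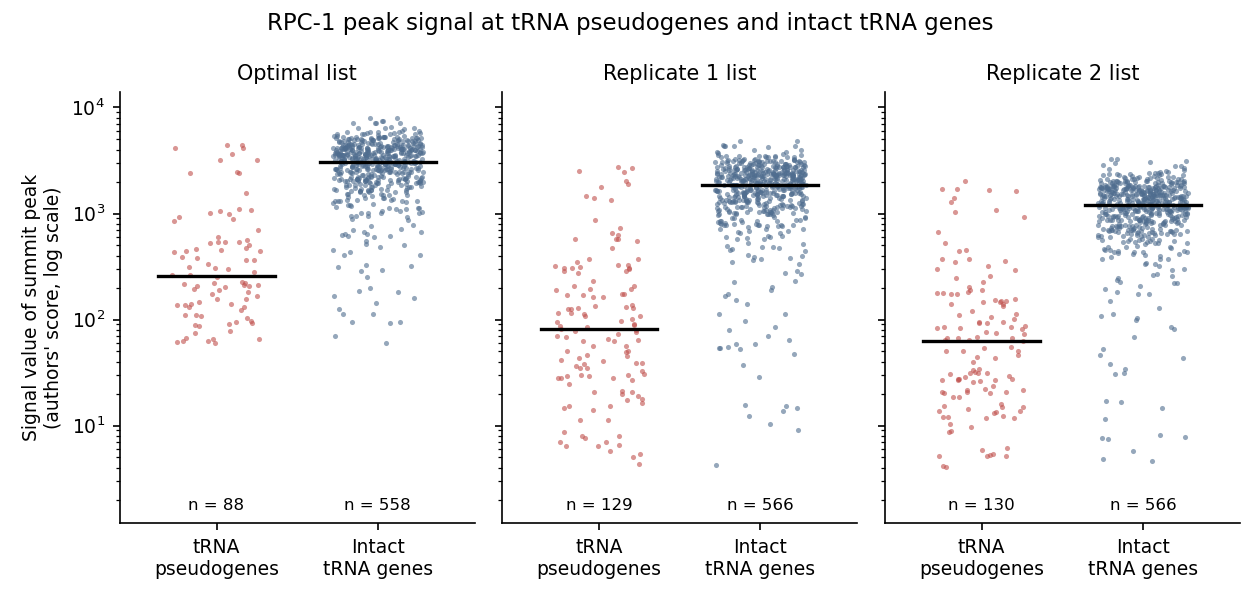
Signal value of the highest peak with a summit within 100 bp (authors' score, log axis) at each tRNA pseudogene and each intact tRNA gene, in the optimal list and in the list of each replicate. Each point is 1 gene and each line the median: 257 against 3073 in the optimal list, 81.4 against 1852 in replicate 1 and 63.4 against 1193 in replicate 2.

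The replicates ordered the pseudogenes alike. Over the 114 pseudogenes with a summit in both replicate lists, Spearman's rho between their signals was 0.95, as a description over genes that share 2 libraries. Of the 87 members with an optimal summit and a summit in both lists, 81 had the higher signal in replicate 1. The median ratio was 1.36, and over 549 intact genes it was 1.52, so the lists differ in scale. ZK678.t4 stood farthest from this order, with 322 in replicate 1 and 20.9 in replicate 2, or rank 25 against 92 of 114. It lies 214 bp from the intact tRNA gene ZK678.t2, and its strongest overlapping peak (1337 in the optimal list) also overlaps an intact tRNA gene. Y80D3A.t1 (102 and 26.7) and C54E10.t6 (41.3 and 8.70) followed, each with a rank gap of 29.

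**Figure D2:**
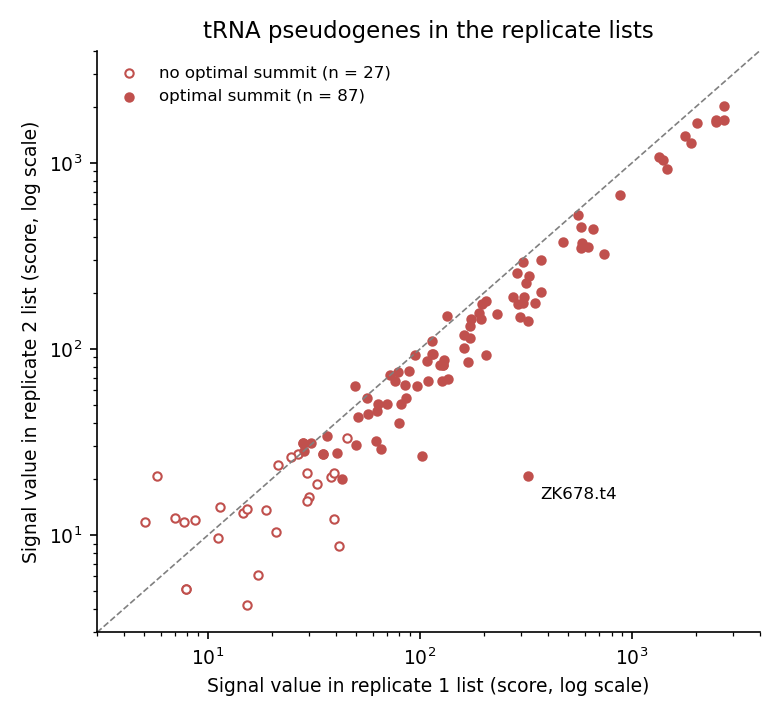
Summit signal of the 114 tRNA pseudogenes with a summit in both replicate lists (both axes: authors' score, log scale). Filled points also have a summit in the optimal list and the dashed line marks equal values. Most filled points lie below it, and ZK678.t4, at 322 and 20.9, lies apart.

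The strongest pseudogenes matched strong intact genes in signal. Y69A2AR.t1 (chrIV:2659013-2659085, an intron of gfrl-1) had 2718 in replicate 1, 1702 in replicate 2 and 4451 in the optimal list. Y69A2AR.t3 (chrIV:2664242-2664314, outside protein-coding genes) had 2702, 2013 and 4446. The pair lies about 5 kb apart on opposite strands, has A box and B box matches in each member, and is 19132 and 24361 bp from the nearest intact tRNA gene. ZK380.t2 on X had 2013 in replicate 1, 1637 in replicate 2 and 3640 in the optimal list. Y53G8B.t9 (2446) and Y22D7AR.t1 (2388) on III and K10B2.t1 (2418) on II completed the 10 highest together with the 4 described next. Below them came a gap: the next, C14E2.t1 on X, had 1550, and 15 pseudogenes in all reached 1000. C14E2.t1 was also the longest pseudogene, at 95 bp. Chromosome V, which holds the most pseudogenes, had no member among these. Its highest, Y43F8C.t5, reached 983.

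Of the 10 highest, 3 lay against a snoRNA gene on the same strand, an arrangement noticed after the values were seen. snoRNAs guide chemical modification of other RNAs. In each case the snoRNA gene began inside the last bases of the pseudogene, with an overlap of 4 to 9 bp. F19H8.t1 (chrII:14617081-14617150, in an intron of mltn-9) had 2478 in replicate 1, 1690 in replicate 2 and 4155 in the optimal list, and the snoRNA gene F19H8.6 starts 62 bp after its first base. D1046.t1 (chrIV:8927200-8927273, in an intron of cfim-2) had 2491, 1662 and 4154, with D1046.6 starting 65 bp in. T08B2.t1 on chromosome I, in an intron of fars-1, which encodes a subunit of phenylalanyl-tRNA synthetase, had 1784, 1394 and 3177, with T08B2.13 starting 68 bp in. A single other pseudogene had a snoRNA gene within 200 bp: Y59E1B.t1 on X, outside protein-coding genes, with 554, 525 and 1077, and Y59E1B.14 starting 63 bp in. So 4 of 4 such pseudogenes were occupied (interval 51.0 to 100%), against 115 of the other 205 (56.1%). All 4 had a summit, at a median of 3665, against 84 of the other 205 (41.0%). Because 3 of the 4 drew notice by their high signal, these values are no separate support. None of the 612 intact tRNA genes had a snoRNA gene within 200 bp, and 4 of the 346 snoRNA genes had a pseudogene there (1.16%). The boxes of these 4 differed: T08B2.t1 and Y59E1B.t1 matched both, F19H8.t1 matched only the A box and was the strongest pseudogene with no B box match, and D1046.t1 was the only one of the 209 to match neither. A peak over such a pair cannot be assigned to the pseudogene or to the snoRNA gene from these lists.

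C52E12.t1, in an intron of unc-104, the kinesin that carries synaptic vesicle precursors, was the pseudogene most alike to an intact gene. It had 1888 in replicate 1, 1280 in replicate 2 and 3168 in the optimal list. Its sequence is 93.1% identical to the alanine tRNA gene B0491.t2, a sequence present in 8 intact copies. The differences, counted from 1 at the 5′ end with the base of B0491.t2 first, are G1A, G2C, G3C, G4T and A7G. All lie in the acceptor stem, where 3 of 7 base pairs could form in C52E12.t1, and the A and B boxes are the same in both. The signal at B0491.t2 was 1777, below that of the pseudogene, and the other intact copies were not compared with it. Of the words of 36 bases in and around C52E12.t1, 62.4% occur once in the genome, but within its body only 18.9% do. Reads from intact copies could therefore be placed there, and the share of such reads was not tested.

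Otherwise, signal showed no steady rise or fall with likeness to an intact gene, but the least alike pseudogenes had the highest median. The median identity to the most alike intact gene was 69.9% (57.7 to 93.1%), 9 pseudogenes were over 90%, and 195 were more alike to another pseudogene than to any intact gene. Across the 209 genes, Spearman's rho between identity and the signal in the pooled list, with no peak taken as 0, was -0.02. Of 11 pseudogenes under 65% identity, 8 were occupied, with a median signal of 1984, and that group includes F19H8.t1, D1046.t1 and Y69A2AR.t3. The median signal was 218 at 65 to 70% identity, 224 at 70 to 75% and 211 at 75 to 85%. Of 13 over 85%, 6 were occupied, with a median signal of 612. Y51B9A.t1, 88.0% identical to the histidine tRNA gene Y57G11C.t1, had no peak in any list, and W03H1.t1, 91.9% identical to an arginine tRNA gene, had 363.

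Acceptor stem pairing was incomplete far more often than a promoter box was missing. All 7 acceptor stem pairs could form in 10 pseudogenes (4.78%) and in 543 intact genes (88.7%), and the median was 5 and 7 pairs. Pairs were counted at fixed positions from the annotated ends, so a shifted end would lower the count. Because pseudogenes are judged unable to fold, poorer stems are also part of how they are defined. An A box match was present in 199 pseudogenes (95.2%), against 97.2% of intact genes and 6.71% of genome windows of 73 bp on one strand. A B box match was present in 165 (78.9%), against 95.9% of intact genes and 0.761% of such windows. All 209 matched the B box with at most 1 mismatch, but no share of intact genes or windows is given for that looser match. A run of 4 T within 50 bp downstream followed 194 pseudogenes (92.8%), 98.9% of intact genes and 51.3% of genome windows of 50 bp.

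Pseudogenes with an A box or a B box had the higher occupied share, and for the B box the order turned once the largest sequence family was set apart. With a B box, 102 of 165 were occupied (61.8%), and without it 17 of 44 (38.6%), a difference of 23.2 percentage points (Newcombe 95% interval 6.6 to 37.9 points). Of the 44 without a B box, 37 form that family, with 12 occupied. Of the other 7 without a B box, 5 were occupied (71.4%), so that the difference turned to -9.61 points outside the family. The A box was absent from 10 pseudogenes, of which 3 were occupied (30%, interval 10.8 to 60.3%), against 116 of the 199 with it (58.3%). None of the 10 belongs to that family, outside which 104 of 162 with an A box were occupied (64.2%, interval 56.6 to 71.2%). The T run went the other way: 13 of the 15 pseudogenes without it were occupied (86.7%, interval 62.1 to 96.3%), all 13 with a summit, against 106 of the 194 with it (54.6%). The 15 include F19H8.t1, T08B2.t1, Y59E1B.t1 and ZK380.t2, and 9 of them are on X. At F19H8.t1, T08B2.t1 and Y59E1B.t1 the 50 bp searched lie inside the overlapping snoRNA gene. Their peaks cannot be assigned to the pseudogene. Outside the largest family and the 2 dense clusters described below, 13 of 14 without the T run and 22 of 43 with it were occupied. The T run comparison was added with these results in view.

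Pseudogenes fell into sequence families, taken as chains of pairs at least 80% identical. There were 5 families of 15 or more, 9 smaller ones with 29 members, and 56 pseudogenes in none. The largest family, of 37, kept the same members at thresholds from 75 to 90%. At 75% the largest group held 130 pseudogenes, so the borders of the other families depend on the threshold. The family of 37 was unlike the others, with a median identity of 95.9% among its members and 10 distinct sequences, while the families of 35, 21, 16 and 15 had medians of 75 to 76.7% and no repeated sequence. It was spread over all 6 chromosomes, with 12 members on X and 10 on IV, and none of its members had a B box match, as the lines for F16F9.t1 and T01G1.t1 show. In this family 12 of 37 were occupied (32.4%, interval 19.6 to 48.5%), with signals from 60.9 at Y60C6A.t1 to 262 at F16F9.t1. F16F9.t1 had 169 in replicate 1 and 84.6 in replicate 2. Read placement limits this result: 34 of the 37 bodies hold no word of 36 bases that is unique in the genome, and 23 hold none even with 100 bp of flank. Over all pseudogenes, 103 of 154 with at least 80% unique words were occupied (66.9%), and 16 of 55 below that (29.1%). What part low uniqueness had in the low share of this family was not tested.

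The family of 37 had a regular layout. There were 28 members in 14 neighbouring pairs, each with the left member on the plus strand and the right member on the minus strand, and no neighbours in another orientation. The gap between the members was 550 to 3678 bp with a median of 985.5 bp, and in 8 pairs it lay within 50 bp of 1000 bp. Both members were occupied in 1 pair, T28B4.t2 (127) and F23G4.t1 (231) on X, 1 member in 6 pairs and none in 7. Of the 9 unpaired members, 4 were occupied. Where 1 member of a pair was occupied, its signal was low, as at R04B3.t2 (194) beside R04B3.t1, which had no peak in the optimal or the pooled list.

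The other families lay mostly in 1 or 2 chromosome arms. The family of 35, with 31 members on V and 4 on IV, had 20 occupied (57.1%), the highest being C25F9.t2 with 571 in replicate 1, 347 in replicate 2 and 923 in the optimal list. The family of 21, with 17 on III and 4 on II, had 13 occupied (61.9%) and contains Y53G8B.t9. The family of 16, split evenly between III and V, had 6 occupied (37.5%) and none above 211. The family of 15, with 7 on II and 8 on V, had 12 occupied (80%), with Y39B6A.t2 the highest at 885. Its members K02E7.t1 and H17B01.t3 had no peak in any list although both hold both boxes and all their words are unique. Among the 56 pseudogenes in no family 38 were occupied (67.9%), with a median signal of 331.

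**Figure D3:**
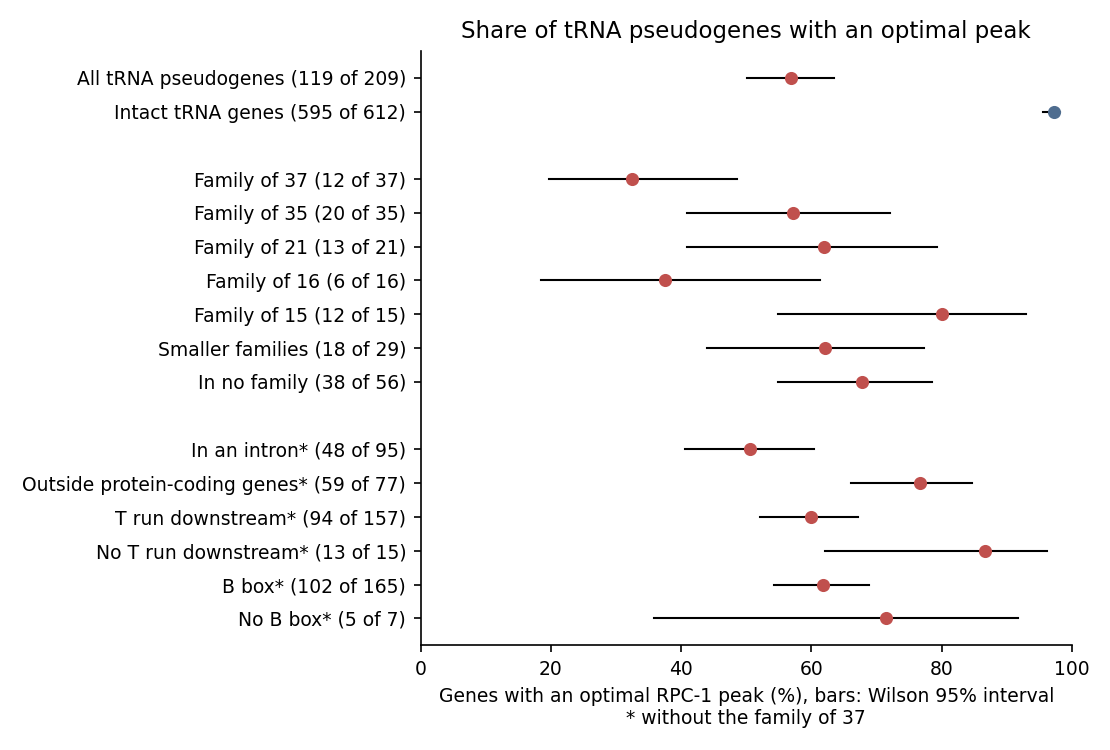
Share of genes with an optimal peak (%, points) and Wilson 95% intervals (bars) for all tRNA pseudogenes, intact tRNA genes, each sequence family and, without the family of 37, by host, T run and B box. The family of 37 (32.4%) and the family of 16 (37.5%) have the lowest shares, and the interval of the former lies below that of the pseudogenes in no family (54.8 to 78.6%).

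On the chromosomes the pseudogenes were concentrated in a few arms. With each chromosome split into 3 equal parts and the outer parts taken as arms, 196 pseudogenes were in arms (93.8%), against 395 intact genes (64.5%). Chromosome V held 91 (43.5%), against 12.7% of the intact genes, and 87 of them lay in its right arm, within 3.65 Mb (chrV:16564062-20214945). The left arm of III held 30 and the left arm of X 17. X, with 15.6 intact tRNA genes per Mb, had 1.64 pseudogenes per Mb, and V had 3.73 and 4.35. The next pseudogene was a median of 1214 bp away, and 145 had another within 5 kb. Of these, 75 were occupied (51.7%), against 44 of 64 without one (68.8%). By summit the shares lay farther apart, at 47 of 145 (32.4%) and 41 of 64 (64.1%). Without the family of 37 the shares by peak were 67 of 117 (57.3%) and 40 of 55 (72.7%).

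In the arms with the most pseudogenes the occupied shares by peak lay close together, but by summit they lay farther apart. The right arm of V had 52 of 87 occupied (59.8%), the left arm of III 20 of 30 (66.7%) and the left arm of X 10 of 17 (58.8%), with overlapping intervals. A summit was present at 32 of 87 (36.8%), 13 of 30 (43.3%) and 10 of 17 (58.8%). The median signals in these arms were 216, 413 and 695. Whole chromosomes ran from 10 of 23 occupied on II (43.5%) to 22 of 33 on III (66.7%). Some arms with few pseudogenes were lower, with 1 of 4 in the right arm of I and in the left arm of V. In the arms together 110 of 196 were occupied (56.1%), and in the centres 9 of 13 (69.2%), a difference of -13.1 points (interval -32.5 to 14.6). With arms narrowed to the outer 25% at each end the sign turned, to 16.7 points, as it did in the pooled list, to 6.24 points. The X chromosome had 18 of 29 occupied (62.1%), which is 5.96 points (interval -13.4 to 22.9) more than the 101 of 180 of the autosomes (56.1%). Where a summit was required, X minus autosomes was 15.2 points. Among pseudogenes with at least 80% unique words the difference was 35.4 points, with 10 of 10 occupied on X. In the pooled list it was -8.03 points.

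**Figure D4:**
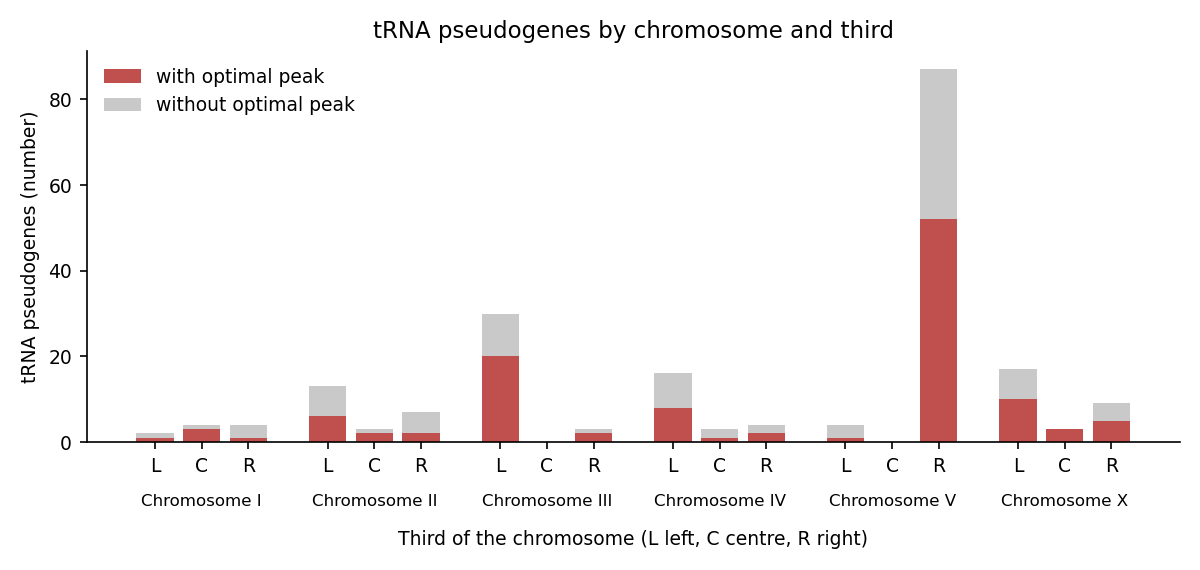
Number of tRNA pseudogenes in the left, centre and right part of each chromosome, split into those with an optimal peak and those without. The right part of V holds 87, of which 52 are occupied, and the left part of III holds 30, of which 20 are.

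Most pseudogenes were far from any intact tRNA gene, so that occupancy was seldom shared with one. The median distance was 91305 bp, with a range of 212 to 569270 bp. Of the 171 farther than 20 kb, 93 were occupied (54.4%). Of the 7 within 1 kb, 5 were (71.4%), a difference from all farther ones of 15 points (interval -21.2 to 36.5). The sign turned where a summit was required (-14.0 points), where peaks had to cover at least 50% of the body (-6.15 points) and in the pooled list (-11.7 points). The strongest peak also covered part of an intact tRNA gene at 4 of the 119 occupied pseudogenes: ZK678.t4 (1337), T13B5.t1 (529), Y51A2B.t2 (255) and Y59A8B.t2 (143). The same peak was the strongest for more than 1 pseudogene in 9 cases with 20 pseudogenes, so the 119 rested on 108 distinct peaks.

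Pseudogenes outside protein-coding genes were occupied more often than those inside. Of 113 within a protein-coding gene, all in introns, 52 were occupied (46.0%), against 67 of 96 outside (69.8%), a difference of -23.8 points (interval -35.9 to -10.4). Without the family of 37 the shares were 48 of 95 (50.5%) and 59 of 77 (76.6%). The difference was seen in the right arm of V, with 22 of 48 inside and 30 of 37 outside, and in the left arm of III, with 11 of 21 and 9 of 9. In the other places, again without the family, the shares lay closer, at 15 of 26 and 20 of 31. On the strand of the host gene 33 of 68 were occupied (48.5%), and on the opposite strand 19 of 45 (42.2%). In the pooled list, which was made from both replicates and holds 24907 peaks against 2123, the order turned: 97 of 113 inside had a peak and 76 of 96 outside, 6.67 points apart. The strongest pair was split between the settings, with Y69A2AR.t1 inside and Y69A2AR.t3 outside.

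Length varied little. The pseudogenes were 66 to 95 bp long with a median of 73 bp (72 bp for intact genes), and 192 were 71 to 75 bp. The 4 under 70 bp had no optimal peak. The 5 of 81 bp or more all had one: C14E2.t1 (1550), F19G12.t1 (1016), H11E01.t1 (846), D1005.t1 (543) and Y113G7B.t2 (60.3). Of these, 4 are on X. These groups are too small for the length border to be read from them.

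Where a summit was present, it lay early in the gene, as at intact genes. It was a median of 11 bp after the first base at the 88 pseudogenes, with quartiles of 0.5 and 26.75 bp, and 13 bp at 558 intact genes, with quartiles of 9.25 and 22.75 bp. The summit was inside the gene at 58 pseudogenes (65.9%) and at 73.5% of intact genes, but the pseudogenes were more spread, with 20.5% against 48.9% in the 10 bp that start at base 10.

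**Figure D5:**
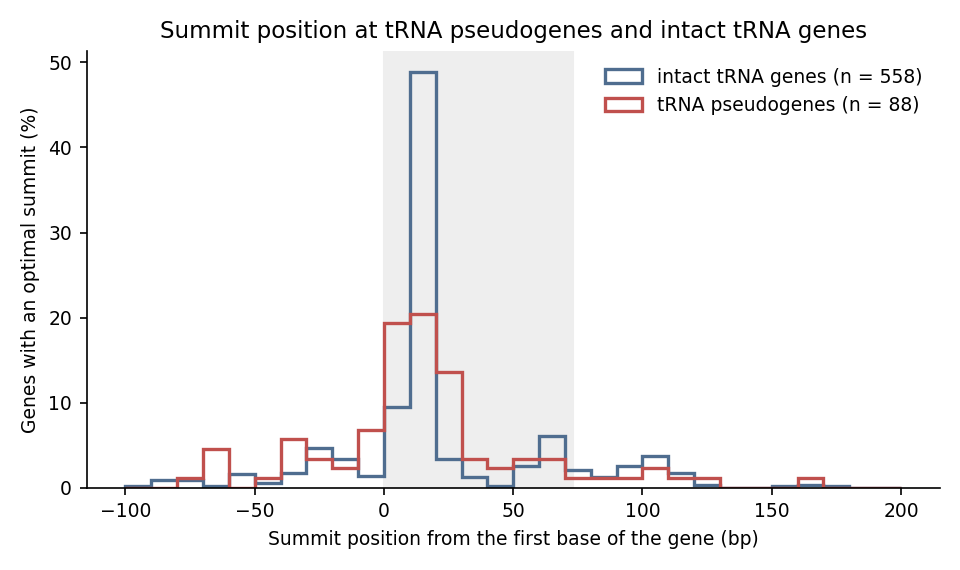
Position of the summit from the first base of the gene (bp, in the direction of transcription, in steps of 10 bp) as a share of the genes with an optimal summit (%). The grey band spans 73 bp, the median pseudogene length. The medians are 11 bp for 88 tRNA pseudogenes and 13 bp for 558 intact genes, whose summits are more sharply placed.

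At 31 occupied pseudogenes the peak had its summit elsewhere. The strongest of these was R148.t4, in an intron of R148.8 on III, with 1366 in replicate 1, 774 in replicate 2 and 2140 in the optimal list, and the summit 217 bp away within R148.8. Y53G8B.t6 (754, summit 279 bp away at another annotated pseudogene, Y53G8B.3), Y53G8B.t5 (638, summit 199 bp away) and Y59A8B.t4 (573, summit 234 bp away in usp-50, its host) followed. For these the peak cannot be assigned to the pseudogene.

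Of the 90 pseudogenes with no optimal peak, 54 were reached by a pooled peak, at a median signal of 25.2, so that a pooled peak reached 173 of 209 (82.8%), against 603 intact genes (98.5%) and 33.8% of all genes. A further 12 had a peak only in a replicate list, such as T25D1.t1, which had 54.3 in replicate 2 and none in replicate 1. The remaining 24 had no peak in any of the 4 lists. Of those 24, 14 held a B box match, against 165 of all 209, and 10 belonged to the family of 37. In 12 of them at least 80% of words were unique, and all 12 held a B box match. So did 147 of all 154 pseudogenes with at least 80% unique words. K02E7.t1, H17B01.t3, Y51B9A.t1 and BE0003N10.t1, the last in an intron of pnpt-1, which encodes polynucleotide phosphorylase, are the first 4 of these along the genome. All 4 match the B box, as the lines for K02E7.t1 and Y51B9A.t1 show, and all but Y51B9A.t1 also match the A box. No peak in a list means that none was called at the depth of these libraries, which is unknown here.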

How the data were processed

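Peak lists in narrowPeak format on ce11 (WBcel235) were used: an optimal, a pooled and 2 replicate lists. Each replicate list, per the deposited descriptions, came from that replicate's alignments and a control alignment, the pooled list from both replicates' alignments (its description names no control, and whether one was used is not stated), and the optimal list from those 3 by IDR. Not given in the sources used here are the aligner, the caller and the threshold of the IDR step. Signal values are a score by the authors' caller, and the deposited −log10 q column was not used for any result. For pseudogenes the highest signal of peaks overlapping by at least 1 bp within 100 bp, and of summits within 100 bp, was taken. Sequence families, uniqueness (36-base words in the gene with 100 bp of flank that occur once in the genome), motifs and distances were computed from the RefSeq genome and annotation with Python 3.11.15 and Biopython 1.88. The overlap functions were tested on simulated peaks. Named genes followed a rule of rank (highest signal, highest per chromosome, largest replicate rank gap, first without a peak), and others illustrate a group. The members, lists and comparisons were chosen with earlier results of these data known. The replicates are labelled biological, with nothing on how they were grown. Alternatives changed 1 choice at a time, except that leaving out a replicate also put the strongest peaks of the other list, as many as the optimal list holds, in place of the IDR selection.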

Additional observations from a re-analysis of the deposited data

How the results depend on the processing

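Of 108 recomputed values, 94 stayed within the range set for them: 1.5 times for a count, the 95% interval for a median or a difference. A difference whose interval spans 0 could turn sign and still count among the 94. In the pooled list this held for X minus autosomes (-8.03 points), arms minus centre (6.24 points) and within 1 kb of an intact tRNA gene minus farther (-11.7 points). Peaks at or above the median signal of the optimal list gave 46 pseudogenes by peak and 37 by summit, with a median signal of 726. A window of 0 bp left 58 summits. The pooled list gave a median of 141 (more and weaker peaks), reversed the difference between inside and outside protein-coding genes to 6.67 points and moved that of length to 84.4 points. The strongest peaks of 1 replicate alone, as many as the optimal list holds, gave medians of 109 and 162, on the scale of the replicate lists. Among pseudogenes with at least 80% unique words, X minus autosomes was 35.4 points (10 of 10 on X), length 67.8 points, and the B box difference reversed to -4.76 points. Arms as the outer 25% gave 16.7 points. Leaving out the family of 37, chosen after the values were seen, reversed the B box difference to -9.61 points, since it holds 37 of the 44 without a B box. The causes of the other moves were not tested. The B box with 1 mismatch and a length border of 60 bp left an empty group and gave no value. No paired analysis was possible because there is 1 group. Depth is unknown, and weak or repeated members may lack a peak for lack of reads or of unique placement.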
